A study of Mus musculus with 2 samples.

Results

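Cells with transcripts of Ccr6 or Cd4 and without the T cell and NCR transcripts named below are called members here. They are the lymphoid tissue inducer-like (LTi-like) fraction of sorted intestinal group 3 innate lymphoid cells (ILC3s). They were sorted from the lamina propria of the small intestine of aged (18-month) C57BL/6 mice, all male. The series concerns the chromatin factor Cxxc1 in such cells during ageing, but the libraries used here hold a single group, aged gut ILC3s, with 2 replicates and no genotype given in the labels. Members were chosen by measured UMI counts (a UMI is 1 counted transcript molecule), so the counts of the chosen genes are no finding. A member was a cell with the replicate's own sample tag, at least 300 genes detected and at most 25% mitochondrial transcripts. It also had at least 1 UMI of Ccr6 or Cd4, no UMI of Ncr1, Cd3d, Cd3e, Cd3g, Trac or Trdc, and fewer than 2 UMIs of Ccl5 and Gzma together. Below, CD3 and T cell receptor (TCR) UMIs are those of Cd3d, Cd3e, Cd3g, Trac and Trdc only. The rule found 179 members among 7177 kept cells, 114 of 3337 in replicate 1 and 65 of 3840 in replicate 2. The labels do not say whether the replicates came from separate mice. Every p-value below thus rests only on how differences between groups of cells varied between these 2 samples, a spread that may be technical. That spread was estimated with information shared across genes. A small p-value or SE thus does not show that the replicates agreed for that gene.

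LTi cells are innate lymphocytes that start the formation of lymph nodes and Peyer's patches in the embryo. In the adult gut their counterparts lie in cryptopatches and isolated lymphoid follicles, respond to IL-23 and IL-1 and make IL-22 and IL-17. CCR6 is the receptor for the chemokine CCL20 and guides them to these follicles, and many mouse LTi cells carry CD4 on their surface without a T cell receptor. LTi-like ILC3s can also carry MHC class II molecules, which display peptides to CD4 T cells. NCR-positive ILC3s, the other main subset, carry the receptor NKp46, the product of Ncr1, and share features with type 1 lymphocytes.

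Members made up 3.42% of kept cells in replicate 1 (exact Clopper-Pearson 95% interval 2.83 to 4.09) and 1.69% in replicate 2 (1.31 to 2.15). The mean share was 2.55% ± 1.22 (SD, n = 2), and the intervals, which cover counting error only, did not overlap. These shares describe cells that passed a sort and a capture, not the tissue. On GRCm38.p6, Ccr6 lies on chromosome 17 at 8236041 to 8258519 and Cd4 on chromosome 6 at 124864693 to 124888247. Ccr6 alone was found in 56 and 27 members, Cd4 alone in 43 and 31, and both genes in 15 and 7. Thus 58 and 38 members carried a Cd4 UMI, as the bar plot of the gate shows.

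**Figure D1:**
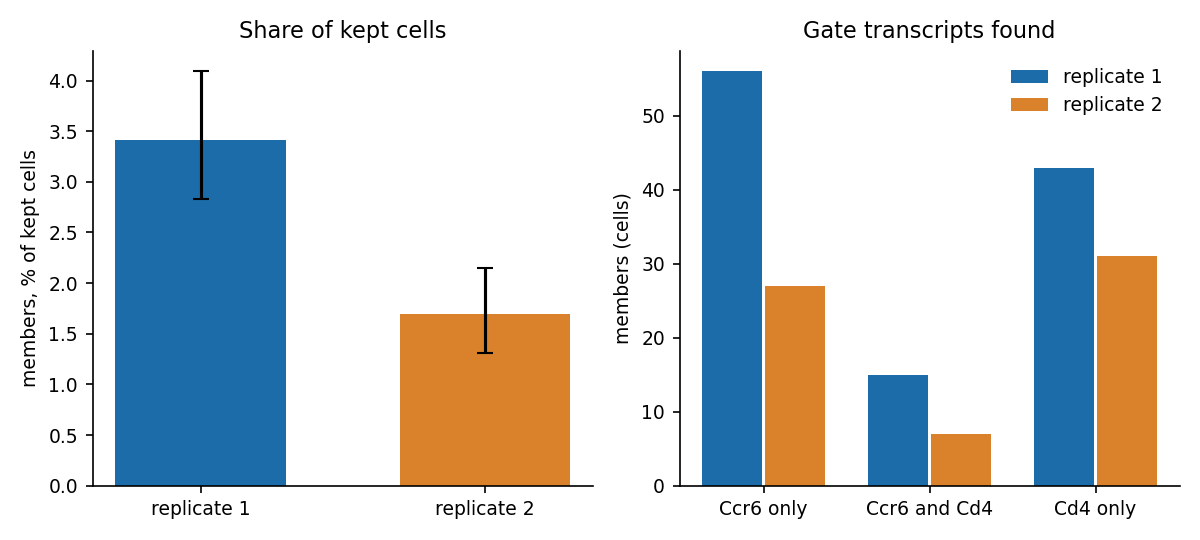
Left: members as a percentage of kept cells in each replicate, with exact 95% intervals for counting error. Right: number of members with a UMI of Ccr6 only, of both genes, or of Cd4 only; few members in either replicate had both.

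The gate rested on few molecules. Exactly 1 UMI of Ccr6 plus Cd4 was found in 64 and 43 members, and 2 or more in 50 and 22, with at most 7 and 10 in a member. With 2 or more required, the shares were 1.498% and 0.573%. Of the 282 and 166 kept cells with a Ccr6 or Cd4 UMI, 147 and 95 had a CD3 or T cell receptor UMI and so were no members. Among the rest, 16 and 5 had an Ncr1 UMI, and 5 and 1 reached 2 UMIs of Ccl5 plus Gzma. Just outside that limit stood 4 and 1 cells with exactly 2 such UMIs, and just inside it 6 and 2 members with exactly 1. Just inside the gate, a Vegfa UMI was found in 20.3% and 32.6% of members with 1 gate UMI, and in 40% and 50% of those with more. Members with more were also deeper, at a median of 2047 and 1749 UMIs against 1505 and 1507. Detection rises with depth, so these shares are not compared at equal depth. H2-Aa stood at 1033 and 1068 CPM (UMIs of the gene in the summed cells, scaled to the total of those cells) with 1 gate UMI and at 869 and 1087 CPM with more.

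Vegfa and Vipr2 were proposed as markers of these cells with these data in view, so their levels, and their place in any count of higher genes below, are described and support nothing. Vegfa, the vascular growth factor gene, was found in 28.9% and 38.5% of members and in 5.90% and 4.72% of all other kept cells. Vipr2, a receptor for vasoactive intestinal peptide, was found in 17.5% and 3.08% of members, so it marked members far less in replicate 2. Il7r, the IL-7 receptor chain, was found in 92.1% and 81.5% of members. The receptor tyrosine kinase gene Kit was found in 48.2% and 52.3% of members and in 12.3% and 7.06% of the Cd4-positive T cells of the sort (130 and 85 cells with a CD3 or TCR UMI). Transcripts of Il7r and Kit, which ILC3s express, were thus found in members of both replicates.

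Markers of other cell types were measured beside these. Of the T cell genes Cd28, Cd40lg, Cd5 and Cd6, at least 1 was found in 6.14% and 6.15% of members, against 69.2% and 69.4% of Cd4-positive T cells. The share was 1.18% and 1.55% in Ncr1-positive and 2.29% and 2.45% in marker-negative cells, both defined below. Of these genes Cd28 was higher in members than in Ncr1-positive cells, at 23.2 and 40.7 against 5.42 and 6.65 CPM (log2 ratio 2.24 ± 0.68, edgeR adjusted p = 0.039), a call that ended without the block and turned to -0.45 with Ccr6 alone as the gate. Of 14 defining B cell, myeloid and dendritic genes, 11 and 10 were at 0 in members. The others, which included Adgre1 and Zbtb46, gave a UMI in 12 and 19 members, or 10.5% and 29.2%, and summed to 83.6 and 220 CPM. The same 14 genes summed to 36.1 and 62.5 CPM in Ncr1-positive and to 290 and 121 CPM in marker-negative cells. Fibroblast genes summed to 548 and 24.4 CPM in members and 4009 and 109 CPM in all other kept cells. Immunoglobulin and plasma cell genes summed to 2856 and 285 CPM in members and 6701 and 3727 CPM in the others. Both lists were thus lower in members than in the other cells, and far lower in members of replicate 2 than of replicate 1. Their part in the results was not tested beyond the values given beside them.

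Members were compared with all other kept cells (3223 and 3775) and with both kinds of cell most like them. Ncr1-positive cells (507 and 387) had an Ncr1 UMI and no Ccr6, Cd4, CD3 or TCR UMI. Marker-negative cells (1269 and 1836) had none of these UMIs. Both kinds also had fewer than 2 UMIs of Ccl5 and Gzma together. Other TCR genes were not excluded. Of these, Trbc1 and Trbc2 were called lower in members than in both kinds, by the test described below. A marker-negative cell may still express a gene whose transcript was not captured. Median UMIs per cell were 1653.5 and 1668 in members, 1883 and 1674 in all other kept cells, 2019 and 1846 in Ncr1-positive and 1687 and 1571 in marker-negative cells. Members as a whole held 215333 and 122724 UMIs.

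Summed UMI counts were tested with edgeR's quasi-likelihood test with the replicate as a block, leaving out the 10 genes of the rule. Against all other kept cells, 170 genes were higher in members, 1.69% of the 10033 tested, and 257 were lower, 2.56%, at an adjusted p under 0.05. Against Ncr1-positive cells 223 genes were higher, 2.65% of 8416, and 245 lower, 2.91%. Against marker-negative cells 169 were higher, 2.01%, and 256 lower, 3.04%. Most calls rested on the block: without it 28 and 5, 25 and 10, and 1 and 0 genes passed, higher and lower in the same order of comparisons, with 686 genes at an unadjusted p under 0.05 in the last. The 1 gene left there was Marcksl1, an actin regulator named here after its values were seen, at 678 and 709 CPM in members and 160 and 153 CPM in marker-negative cells. The split between higher and lower also moved with DESeq2 and its size factors, which called 99 and 64, 222 and 123, and 132 and 92. The median log2 ratio over all genes tested was -0.14, -0.07 and -0.07.

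The antigen presentation genes H2-Aa, H2-Ab1, H2-Eb1, Cd74, Ctss and Cd83 were higher in members than in all other kept cells, Ncr1-positive cells and marker-negative cells. H2-Aa, H2-Ab1 and H2-Eb1 encode chains of the MHC class II molecule, Cd74 the invariant chain that guides it to the endosome, Ctss a protease that trims this chain, and Cd83 a protein that keeps class II on the cell surface. Of the 12 genes of the list 11 were tested against all other kept cells, and 6 were higher, with a median log2 ratio of 1.86. Against Ncr1-positive cells 7 of 8 were higher (median 4.03), and against marker-negative cells 6 of 8 (median 1.66).

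H2-Aa stood at 947 and 1076 CPM in members of replicates 1 and 2. It stood at 273 and 110 CPM in all other kept cells, 51.5 and 18.6 in Ncr1-positive and 402 and 164 in marker-negative cells. Members were above every comparison class in both replicates, and the spread lay in the comparison cells, whose level was more than 2 times higher in replicate 1. The log2 ratio of H2-Aa was 2.35 ± 0.20 (SE, edgeR adjusted p = 4.7e-29) against all others and 4.78 ± 0.28 (edgeR adjusted p = 1.5e-16) against Ncr1-positive cells. It was 1.78 ± 0.20 (edgeR adjusted p = 2.4e-08) against marker-negative cells.

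Cd74 stood at 1249 and 1988 CPM in members, and at 438 and 185 CPM in all other kept cells. H2-Ab1 stood at 627 and 782 CPM against 294 and 94.5, and H2-Eb1 at 571 and 709 against 206 and 70.6. The groups did not overlap for any of these genes, but the log2 ratio of Cd74 was 1.44 in replicate 1 and 3.19 in replicate 2. Log2 ratios over both replicates were 2.30 ± 0.19 for Cd74, 1.86 ± 0.21 for H2-Ab1 and 2.18 ± 0.21 for H2-Eb1, with edgeR adjusted p of 3.0e-31, 3.4e-16 and 2.5e-21. Without the replicate block the calls of these genes and of H2-Aa ended against all other kept cells, and that of Cd74 ended with DESeq2 too (log2 ratio 2.39). Against marker-negative cells those of H2-Ab1 and H2-Eb1 ended with DESeq2. In an alternative, cells carrying a UMI of the 14 defining B cell, myeloid and dendritic genes were left out of members and comparison cells alike. The ratios against all other kept cells were then larger, at 2.92 for Cd74, 3.04 for H2-Aa, 2.89 for H2-Ab1 and 2.83 for H2-Eb1. Against Ncr1-positive cells that of H2-Aa was smaller, 4.20 instead of 4.78, and that of Cd74 was 3.89. How far these shifts came from members or from comparison cells was not tested.

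Cd83 (chromosome 13, 43785112 to 43803133) stood at 771 and 929 CPM in members and at 99.3 and 86.0 CPM in all other kept cells. Both member values lay above every other class, and both replicates gave nearly the same ratio, 2.88 and 3.19 on the log2 scale. The ratio over both was 3.03 ± 0.21 (edgeR adjusted p = 2.2e-43), and the call of Cd83 held in every alternative run for this comparison. Ctss, at 362 and 244 against 181 and 113 CPM, was higher by a log2 ratio of 0.90 ± 0.24 (edgeR adjusted p = 0.0055), and its call ended in several alternatives, DESeq2 and the fit without the block among them.

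A UMI of H2-Aa, H2-Ab1, H2-Eb1 or Cd74 was found in 76 members of replicate 1, 66.7% (exact interval 57.2 to 75.2), and in 39 of replicate 2, 60% (47.1 to 72.0). The share was 21.3% and 11.4% of Ncr1-positive, 29.6% and 13.0% of marker-negative and 28.5% and 11.8% of Cd4-positive T cells, whose median depth was 2015.5 and 1798 UMIs. The members' share lay above that of Cd4-positive T cells in both replicates. Mouse T cells lack class II, and whether their UMIs came from free RNA or from doublets was not tested. A single Cd4-positive T cell of replicate 1 held 65 of the 125 class II UMIs of that class. The same sources were not tested in members. With each cell thinned to 800 UMIs, Cd74 was found in 39.3% and 45.3% of members and in 6.25% and 4.82% of Cd4-positive T cells. All 4 genes were found together in 20 and 12 members, 1 to 3 of them in 56 and 27, and none in 38 and 26. Class II transcripts were unevenly spread. The 1% of other kept cells with most, 33 and 38 cells, held 72.3% and 69.8% of these UMIs. The 2 and 1 members with most held 20.5% and 26.3%. Few cells still held most of these UMIs in both groups: the 11 and 5 members with 20 or more held 58.8% and 61.9%, and the 52 and 25 other kept cells with as many held 78.7% and 63.3%, nearly the members' share in replicate 2. Of the 76 and 39 members with a class II UMI, 10 and 17 also had a UMI of the 14 defining genes. Only 12 and 19 members had such a UMI at all, so most of these carried class II.

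**Figure D2:**
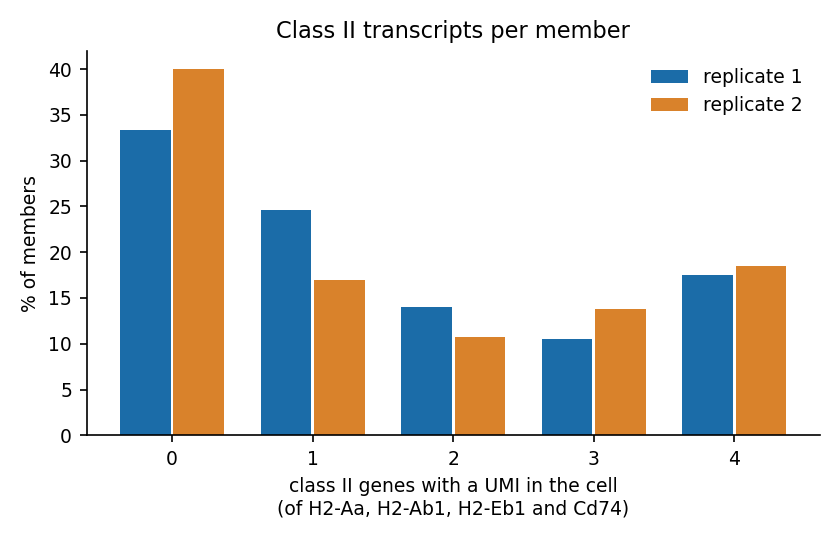
Percentage of members (vertical axis) with a UMI of 0 to 4 of the genes H2-Aa, H2-Ab1, H2-Eb1 and Cd74 (horizontal axis), by replicate. In replicates 1 and 2, 33.3% and 40% of members had none, and 17.5% and 18.5% had all 4.

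The promoters of class II genes share an element, with an X box core and a Y box, through which the coactivator CIITA acts. Because these genes were higher together in members, the proximal promoters of H2-Aa and H2-Eb1 are shown, as the 120 bases before the start in RefSeq's table for GRCm38.p6, with the letters GCAAC and CTGATTGG in capitals. H2-Aa lies on the minus strand (chr17:34287824-34287943) and H2-Eb1 on the plus strand (chr17:34305747-34305866).
H2-Aa: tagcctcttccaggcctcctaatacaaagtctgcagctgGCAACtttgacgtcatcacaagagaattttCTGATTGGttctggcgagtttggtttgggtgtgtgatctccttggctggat
H2-Eb1: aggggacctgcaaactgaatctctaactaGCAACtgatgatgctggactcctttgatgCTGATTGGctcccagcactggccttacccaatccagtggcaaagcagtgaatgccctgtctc
The motifs start 81 and 51 bases before the start of H2-Aa and 91 and 62 bases before that of H2-Eb1, so they lie 30 and 29 bases apart. Read on both strands, CTGATTGG was found in 4.10% of 32851 promoter windows of 300 bases and GCAAC in 35.2%. GCAAC followed by CTGATTGG, with starts at most 40 bases apart, was found in 0.137%, or 45 windows, and in 3 of the 8 list genes with a window. A match describes letters and no binding was measured.

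Cytokine genes were the next group. IL-22 strengthens epithelial defence and IL-17F draws neutrophils. Il22 stood at 5211 and 4269.7 CPM in members, and at 1598 and 1862 CPM in all other kept cells. It stood at 2168 and 2083 in Ncr1-positive and 2348 and 2669.5 in marker-negative cells, so members were the highest class in both replicates. The log2 ratios of Il22 were 1.30 ± 0.15, 1.11 ± 0.16 and 0.85 ± 0.15 in these comparisons (edgeR adjusted p = 7.0e-15, 1.4e-06 and 0.00017), and each call ended without the block. The share of cells with an Il22 UMI differed less, at 66.7% and 67.7% of members against 56.7% and 54.2% of marker-negative cells. A member with Il22 had a median of 4 and 5.5 UMIs, other cells with Il22 had 3 and 3, and the 10 members with most held 60.3% and 64.7% of the members' Il22 UMIs. The upper end was thus set by few cells, with up to 126 and 53 UMIs in a member.

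Il17f stood at 214 and 196 CPM in members and 46.2 and 44.9 in all other kept cells, found in 18 and 11 members. Its log2 ratio was 2.03 ± 0.29 (edgeR adjusted p = 1.2e-09), and 3.31 ± 0.45 against Ncr1-positive cells (edgeR adjusted p = 6.7e-07). Il17a, the gene of the sister cytokine, had 4 and 4 UMIs in members, and its log2 ratio of -0.52 ± 0.58 did not pass (edgeR adjusted p = 0.85). Lif, a cytokine of the IL-6 family, stood at 74.3 and 196 against 20.1 and 44.9 CPM, a log2 ratio of 1.85 ± 0.35 (edgeR adjusted p = 8.9e-06). It was above the other kept cells in each replicate, although its level differed 2-fold or more between replicates in both groups. Vegfa stood at 399 and 562 CPM in members, 56.8 and 52.5 in all others, 21.7 and 19.95 in Ncr1-positive and 92.3 and 70.0 in marker-negative cells. Of the 12 cytokine and growth factor genes tested against all others, 4 were higher and 1, Ifng, was lower (median log2 ratio -0.04).

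Il22 and class II transcripts stood in the same cells as well as in different ones. Both were found in 58 and 28 members, Il22 without class II in 18 and 16, class II without Il22 in 18 and 11, and neither in 20 and 10. Of the 33 and 25 members with Vegfa, 26 and 22 had class II. Of the 20 and 12 members with an Il17a or Il17f UMI, 17 and 8 had Il22. Vegfa and Vipr2 were found together in 8 and 2 members.

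**Figure D3:**
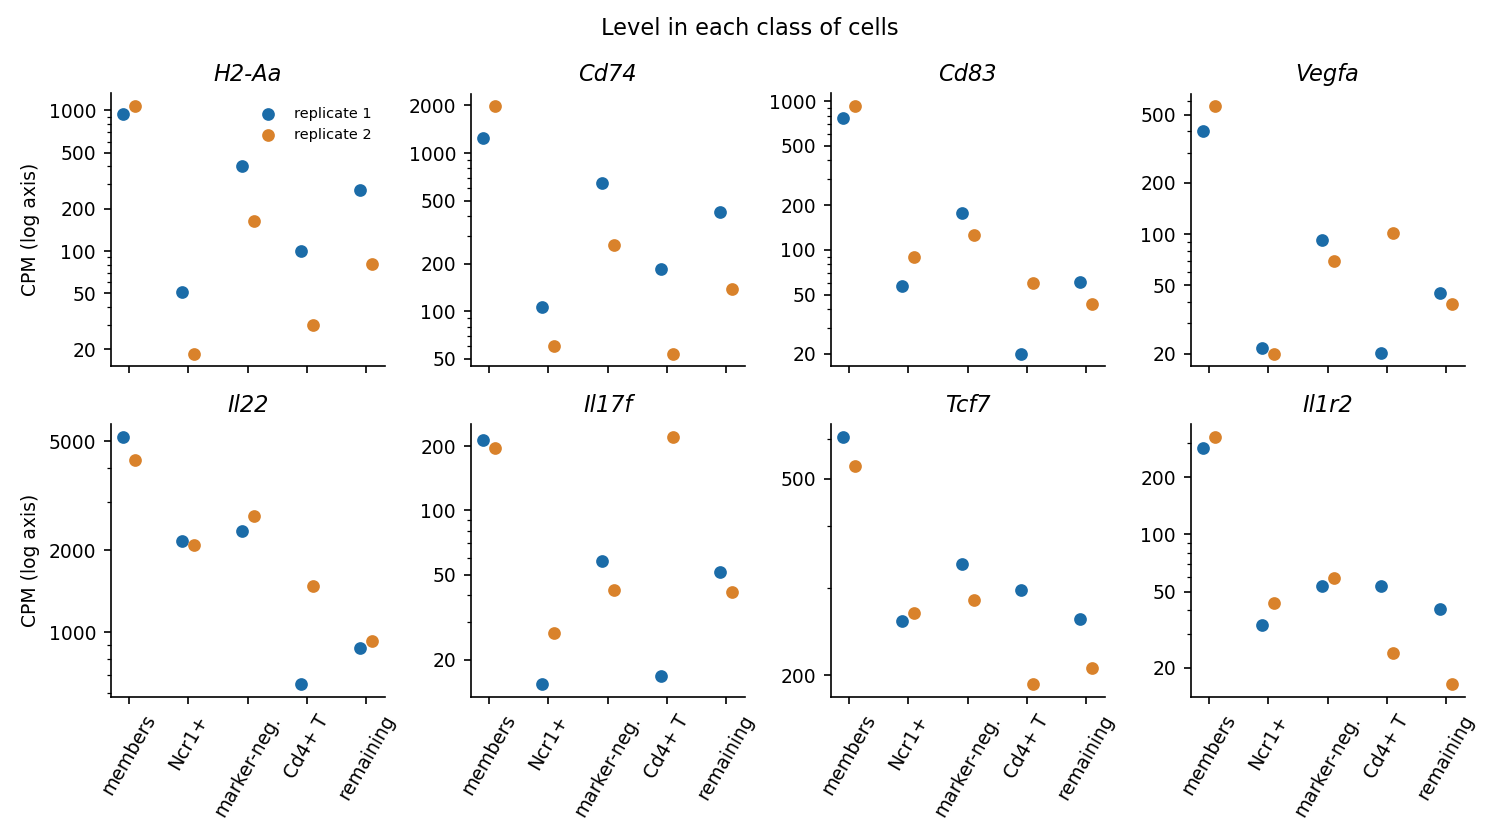
CPM (log axis) of 8 genes in the summed cells of each class: members, Ncr1-positive cells, marker-negative cells, Cd4-positive T cells and the remaining kept cells, with 1 point per replicate. Members were highest in both replicates for each gene except Il17f, for which the Cd4-positive T cells of replicate 2 stood at 222 CPM.

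Homing receptors differed in both directions, with the follicle receptor Cxcr5 higher and the gut receptor Ccr9 lower in every comparison with cells outside the gate. Cxcr5 (chromosome 9, 44511787 to 44526444), the receptor for the follicle chemokine CXCL13, stood at 125 and 106 CPM in members. All other kept cells had 9.52 and 3.89 CPM, Ncr1-positive cells 2.71 and 1.33, and marker-negative cells 18.96 and 5.94. The groups were far apart, although a Cxcr5 UMI was found in only 18 and 9 members. Its log2 ratios were 3.97 ± 0.48, 5.68 ± 0.62 and 3.14 ± 0.42 (edgeR adjusted p = 1.2e-13, 4.6e-09 and 7.6e-07).

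Ccr9 responds to CCL25, a chemokine of the small bowel, and went the other way, at 60.4 and 122 CPM in members against 340 and 241 in all other kept cells. It was found in 6.14% and 15.4% of members and in 53.8% and 52.9% of Cd4-positive T cells. Its log2 ratio was -1.93 ± 0.30 (edgeR adjusted p = 1.2e-08), and -2.57 ± 0.26 against Ncr1-positive cells (edgeR adjusted p = 5.2e-10). Of the 12 homing receptors tested against all others, 4 were higher (Cxcr5, Ccr7, Cxcr4 and Itga4) and 3 lower (Ccr9, Ccr2 and Cxcr6), with a median log2 ratio of -0.20. Itga4, an integrin chain, stood at 399 and 310 against 155 and 97.9 CPM (log2 ratio 1.35 ± 0.23, edgeR adjusted p = 9.4e-07). Ccr7, the lymph node receptor, stood at 32.5 and 171 against 14.7 and 8.82 CPM (2.73 ± 0.50, edgeR adjusted p = 4.8e-06), and in replicate 2 a single member held 13 of its 21 UMIs. The receptor genes Ccr2 and Cxcr6 had log2 ratios of -2.25 ± 0.46 and -0.70 ± 0.18 (edgeR adjusted p = 8.7e-05 and 0.0042).

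Ion channel, chemokine and growth factor genes stood among the 12 genes named as higher than in all other kept cells. Cacna1g, a T-type calcium channel, stood at 167 and 130 against 20.5 and 9.27 CPM, a log2 ratio of 3.18 ± 0.38. Cx3cl1, the membrane-bound chemokine fractalkine, stood at 404 and 367 against 48.2 and 57.3 CPM (2.74 ± 0.24) and was found in 42 and 26 members. Tgm2, a transglutaminase, stood at 297 and 562 against 68.4 and 30.8 CPM (2.95 ± 0.25). Members exceeded the other cells in both replicates for these 3 genes, most unevenly for Tgm2, whose log2 ratio was 2.04 and 3.93. Bmp2, a bone morphogenetic protein, stood at 153 and 81.5 against 14.7 and 12.3 CPM (3.00 ± 0.43). The edgeR adjusted p of these genes lay between 9.3e-30 for Tgm2 and 8.6e-10 for Bmp2. Adra2a (chromosome 19, 54045259 to 54048982), an adrenergic receptor, came second among them, after Cxcr5, with 3.47 ± 0.64 (edgeR adjusted p = 7.3e-06). It rested on 4 and 5 members, and 1 member held 10 of the 13 UMIs of replicate 1. Its levels were 60.4 and 57.0 CPM against 4.16 and 5.68.

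The rest of the 12 were Ttn (2.91), Ncf1 (2.89), Cd81 (2.81) and Plek (2.80), beside Vegfa and Cd83 described above. Ncf1, a subunit of the phagocyte NADPH oxidase, stood at 88.2 and 139 against 13.7 and 12.7 CPM. Plek, a protein kinase C substrate of blood cells, stood at 241 and 464 against 42.8 and 43.4 CPM. Without cells carrying a defining B cell, myeloid or dendritic UMI the log2 ratio of Plek fell from 2.80 to 1.44 and that of Ncf1 moved only from 2.89 to 2.81. Adgre1 and Zbtb46, counted here among the myeloid and dendritic genes, were themselves higher in members. Their levels were 32.5 and 73.3 against 3.12 and 1.05 CPM for Adgre1 and 46.4 and 130 against 17.0 and 30.1 CPM for Zbtb46. Adgre1 was found in 4 and 9 members, with at most 2 UMIs in any of them, and its call ended without the block and with Ccr6 alone as the gate. Zbtb46 was found in 9 and 12, and also in 2.37% and 8.53% of Ncr1-positive cells. Whether its UMIs came from dendritic cells or from the ILC3s themselves was not tested. Leaving out cells with a defining UMI may thus also leave out ILC3s.

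**Figure D4:**
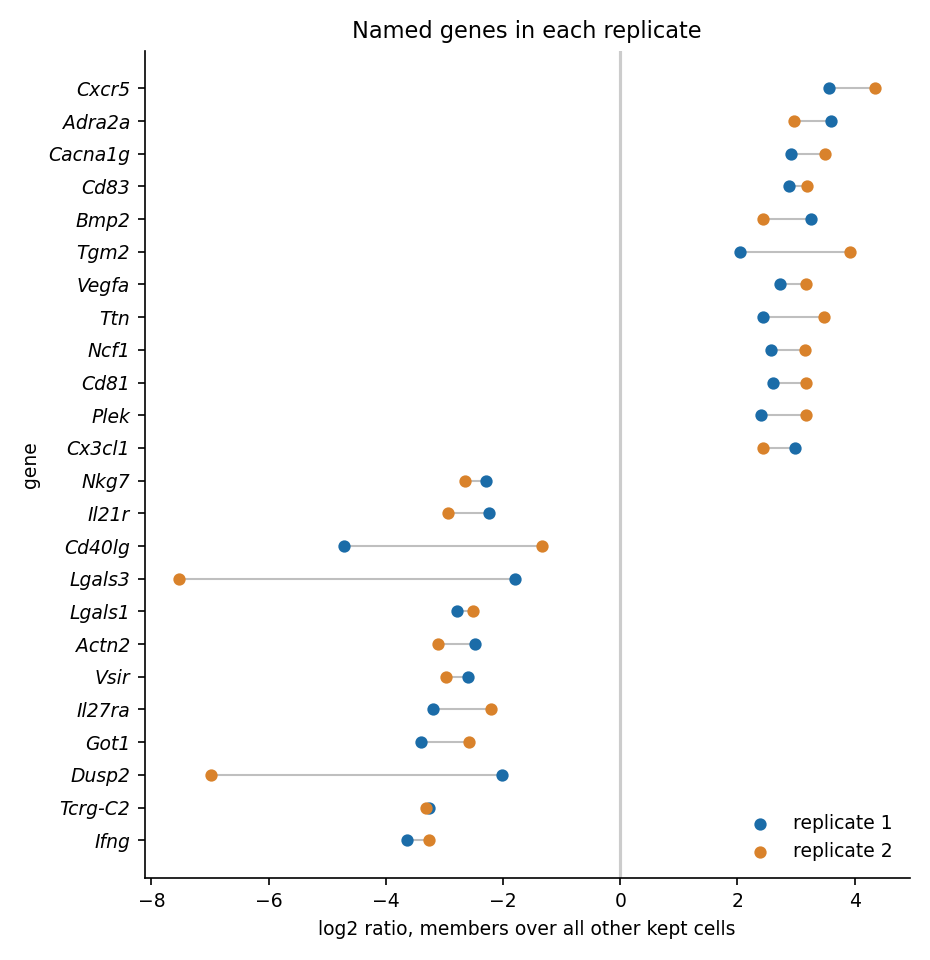
Log2 ratio of members over all other kept cells (horizontal axis) for the 12 genes with the largest ratio above and the 12 with the largest ratio below 0 by the naming rule, with 1 point per replicate joined by a line. All 24 genes lie on the same side of 0 in both replicates; Lgals3 and Dusp2 had 0 UMIs in members of replicate 2, so their points there depend on the prior count of 2.

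Among receptors that define ILC3s, 3 of 16 were higher against all others (Il1r2, Kit and Nrp1) and 2 lower (Thy1 and Il12rb2), with a median log2 ratio of 0.00. Il1r2 encodes the decoy receptor for IL-1, which binds the cytokine without a signal. It stood at 283 and 326 CPM in members against 44.8 and 39.0 CPM (log2 ratio 2.69 ± 0.27, edgeR adjusted p = 1.6e-20). It was carried by few members, 14 and 10, and its log2 ratio was 1.79 without cells carrying a defining B cell, myeloid or dendritic UMI. Kit stood at 525 and 521 against 279 and 225 CPM (0.90 ± 0.21, edgeR adjusted p = 0.00083), a call that ended without the block, with thinned cells and against CD3-negative cells only, among others. Against Ncr1-positive cells the log2 ratio of Kit was 0.41 ± 0.16 and did not pass (edgeR adjusted p = 0.14). Nrp1, a semaphorin receptor, stood at 241 and 48.9 CPM in members, so it was high in replicate 1 only, against 51.0 and 29.3 (1.75 ± 0.32, edgeR adjusted p = 4.1e-06). Il23r and Il7r did not pass, with log2 ratios of -0.18 ± 0.28 and -0.23 ± 0.16 (edgeR adjusted p = 0.92 and 0.64).

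Of 11 neuropeptide and environment receptors tested against all others, Vipr2 was higher (median log2 ratio 0.26). Vipr2 stood at 111 and 16.3 CPM in members against 13.5 and 6.43 CPM. Against Ncr1-positive cells 4 of 9 were higher (Vipr2, Ret, Ramp1 and Gpr183). Ret, the receptor for glial cell line-derived factors, stood at 149 and 155 CPM in members and 35.2 and 42.6 CPM in Ncr1-positive cells, a log2 ratio of 1.92 ± 0.31 (edgeR adjusted p = 2.9e-05). Gpr183, which senses oxysterols and guides ILC3s to cryptopatches, stood at 901 and 709 against 517 and 548 CPM (0.58 ± 0.15, edgeR adjusted p = 0.013). Ramp1, part of the receptor for the neuropeptide CGRP, stood at 130 and 32.6 against 21.7 and 9.31 CPM.

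Transcription factors differed in both directions. Of the 24 tested against all others, 3 were higher (Tcf7, Tox2 and Batf3) and 4 lower (Bcl11b, Ikzf3, Maf and Zbtb16), with a median log2 ratio of -0.32. Tcf7, which encodes TCF-1, stood at 608 and 530 CPM in members against 288 and 248 in all others, 257 and 267 in Ncr1-positive and 336 and 283 in marker-negative cells. Both member values exceeded all of these, with log2 ratios of 0.94 ± 0.21, 1.06 ± 0.17 and 0.80 ± 0.16 (edgeR adjusted p = 0.00032, 1.4e-05 and 0.00065). The calls of Tcf7 ended without the block and with thinned cells, among others. Batf3 stood at 74.3 and 8.15 against 13.5 and 4.64 CPM, with 1 UMI in members of replicate 2. Bcl11b, a T cell and ILC2 factor, stood at 13.9 and 57.0 against 141 and 127 CPM. The rule kept cells with CD3 or TCR UMIs out of the members but not out of all other kept cells. Bcl11b was not called against Ncr1-positive or marker-negative cells. Maf, at 539 and 839 against 880 and 1304 CPM in all others, was lower by a log2 ratio of -0.83 ± 0.18 (edgeR adjusted p = 0.00042). Id2, required by all ILCs, did not pass (-0.10 ± 0.18, edgeR adjusted p = 0.93).

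Against marker-negative cells 2 of the 24 factors were higher (Tcf7 and Tox2) and 3 lower (Ikzf3, Maf and Zbtb16). Against Ncr1-positive cells 4 factors were higher (Tcf7, Tox2, Batf3 and Gata3) and 4 lower (Maf, Tbx21, Ikzf2 and Ikzf3). Tbx21, which encodes the type 1 factor T-bet, stood at 23.2 and 65.2 CPM in members and 94.8 and 99.8 CPM in Ncr1-positive cells (log2 ratio -1.38 ± 0.39, edgeR adjusted p = 0.025). Gata3 stood at 214 and 97.8 against 70.4 and 102 CPM, so its call rested on replicate 1. Tox2, an HMG-box factor, stood at 92.9 and 48.9 against 8.13 and 9.31 CPM, but in only 3 members of replicate 2.

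Among TNF superfamily ligands, 2 of 10 were higher (Tnfsf4 and Tnfsf8) and 1 lower (Cd40lg) against all others, with a median log2 ratio of -0.62. Tnfsf4, the ligand of OX40, stood at 41.8 and 106 CPM in members against 3.42 and 2.69 CPM (4.29 ± 0.68, edgeR adjusted p = 5.0e-08). It came from 3 and 8 members, and its call ended without cells carrying a defining B cell, myeloid or dendritic UMI (log2 ratio 2.98). Tnfsf8, the ligand of CD30, stood at 55.7 and 179 against 14.7 and 14.4 CPM (2.69 ± 0.45, edgeR adjusted p = 2.9e-07), with 12 of its 22 UMIs of replicate 2 in 1 member. The lymphotoxin genes Lta and Ltb, whose products build lymphoid tissue, did not pass (log2 ratios 0.79 ± 0.38 and -0.23 ± 0.24, edgeR adjusted p = 0.35 and 0.83). Tnfsf11, which encodes RANKL, stood at 878 and 603 against 529 and 399 CPM and did not pass (0.52 ± 0.19, edgeR adjusted p = 0.12).

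Of 21 cytotoxic and type 1 genes tested against all others, 8 were lower in members (median log2 ratio -1.15). Against Ncr1-positive cells 9 were lower and against marker-negative cells 7, at medians of -1.77 and -1.45. The rule itself kept cells with CD3 or TCR UMIs, or with 2 or more UMIs of Ccl5 plus Gzma, out of the members. The Ncr1-positive and marker-negative cells were cleared of them in the same way. Nkg7, a cytotoxic granule protein, stood at 51.1 and 32.6 CPM in members and 240 and 176 CPM in all others. It stood at 211 and 186 in Ncr1-positive cells, above both member values, with log2 ratios of -2.42 ± 0.36 and -2.26 ± 0.35 (edgeR adjusted p = 2.6e-09 and 1.2e-05). Xcl1, a chemokine of killer lymphocytes, stood at 46.4 and 187 CPM in members and 523 and 515 in Ncr1-positive cells (-2.45 ± 0.27, edgeR adjusted p = 4.6e-09). Klrk1, the NKG2D receptor gene, stood at 60.4 and 147 against 277 and 342 CPM in Ncr1-positive cells (-1.77 ± 0.27). Ifng had 1 UMI in members of each replicate. Over both replicates it was 11.2-fold lower than in all other kept cells, with a counting interval of 3.10 to 92.9.

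The other genes that stood lowest against all other kept cells were Tcrg-C2, Dusp2, Got1, Il27ra, Vsir, Actn2, Lgals1, Lgals3, Cd40lg and Il21r. Tcrg-C2 is a T cell receptor gamma constant gene and had 2 and 1 UMIs in members, 9.19-fold lower with a counting interval of 3.14 to 44.6. Lgals1, which encodes galectin-1, stood at 23.2 and 24.4 against 157 and 120 CPM (log2 ratio -2.72 ± 0.44, edgeR adjusted p = 1.2e-07). Got1, an aspartate aminotransferase, stood at 13.9 and 73.3 against 145 and 375 CPM (-2.88 ± 0.36, edgeR adjusted p = 1.2e-12). Set only against other kept cells without CD3 and TCR UMIs, Cd40lg and Il21r turned to 1.56 and 0.35, while Got1, Lgals1, Nkg7, Dusp2 and Il27ra stayed lower and past the threshold. The calls of Ifng (-2.55), Tcrg-C2 (-0.24), Vsir (-2.13), Actn2 (-1.77) and Lgals3 (-1.62) ended there. Of 11 checkpoint and costimulatory genes 4 were lower (Icos, Ctla4, Tnfrsf18 and Cd52). Against Ncr1-positive and against marker-negative cells 3 of 9 were lower (Icos, Tnfrsf18 and Cd52), Ctla4 did not pass, and Pdcd1, the gene of the checkpoint receptor PD-1, was higher. Pdcd1 had 4 and 6 UMIs in members, at 18.6 and 48.9 CPM, against 1.81 and 0 CPM in Ncr1-positive and 5.90 and 4.62 CPM in marker-negative cells (edgeR adjusted p = 0.0022 and 0.035). Both calls of Pdcd1 ended without the block and with thinned cells. Against all other kept cells Icos stood at 483 and 937 against 1336 and 2071 CPM (-1.46 ± 0.18, edgeR adjusted p = 1.6e-13).

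Early response genes gave 6 higher and 1 lower gene of 20 (median log2 ratio 0.04), and heat shock genes 2 higher of 12 (median 0.08). Jun stood at 5731 and 4278 against 3154 and 2151 CPM (0.77 ± 0.15, edgeR adjusted p = 1.6e-05). Atf3, a stress-response factor, stood at 1119 and 627 against 392 and 346 CPM (1.07 ± 0.19, edgeR adjusted p = 3.4e-06). Dnaja1, a chaperone, stood at 1537 and 2078 against 620 and 822 CPM (1.17 ± 0.17, edgeR adjusted p = 1.5e-09). These 3 calls ended without the block. Hspa1b differed far more between the replicates than between the groups, at 60.4 and 1165 CPM in members and 35.4 and 500 in all others.

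Slc6a20a and Hey1 were lower in members than in both Ncr1-positive and marker-negative cells. Slc6a20a (chromosome 9, 123636907 to 123678832), an amino acid transporter, stood at 51.1 and 106 CPM in members, 564 and 447 in Ncr1-positive and 339 and 347 in marker-negative cells. Both member values were the lowest, with log2 ratios of -2.89 ± 0.26 and -2.35 ± 0.27 (edgeR adjusted p = 5.4e-11 and 4.1e-08). Hey1 (chromosome 3, 8663359 to 8667038), a repressor induced by Notch, stood at 9.29 and 40.7 CPM in members, 126 and 142 in Ncr1-positive and 107 and 125 in marker-negative cells. Its log2 ratios were -2.71 ± 0.44 and -2.51 ± 0.44 (edgeR adjusted p = 2.5e-05 and 0.00012). Hes1, a related Notch target, was lower than in marker-negative cells, at 27.9 and 8.15 against 129 and 60.1 CPM (-2.43 ± 0.54, edgeR adjusted p = 0.0026). Il27ra, a chain of the IL-27 receptor, had 2 and 2 UMIs in members and stood at 9.29 and 16.3 CPM, against 80.4 and 57.2 CPM in Ncr1-positive cells.

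Adra2a had 0 UMIs in Ncr1-positive cells and 20 in members, 36.7-fold higher if 3 UMIs take the place of the 0. The exact counting interval, which also covers the error of the member UMIs, allows a ratio down to 27.2-fold. H2-DMb2, which encodes a chain of the peptide exchanger H2-M, had 9 UMIs in members and 0 in Ncr1-positive cells. Its ratio was 16.5-fold in the same way and down to 10.9-fold by the exact interval. These limits treat UMIs pooled over cells and replicates as independent counts. They do not cover spread between cells, and 1 member held 10 of the 13 Adra2a UMIs of replicate 1. H2-DMb2 was found in 2 and 3 members. Irgm2, Cpne7 and Dstn completed the 8 genes named as lower, each with 6 or fewer UMIs in members. Against marker-negative cells the named genes also held Tnfsf8 (3.59), Plek (2.58), Ly86 (2.55) and Nmrk1 (2.47) on the higher side, and Kcnc1 (-2.05) on the lower. Ly86, the partner of a Toll-like receptor homologue, stood at 167 and 97.8 CPM in members against 34.1 and 9.91 CPM. Nmrk1, a kinase of NAD synthesis, stood at 102 and 220 against 22.3 and 31.4 CPM (2.47 ± 0.31, edgeR adjusted p = 2.1e-07).

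Within the members, those with a Cd4 UMI (58 and 38) were compared with those that had Ccr6 only (56 and 27). The test covered 1610 genes, of which 5 were higher with Cd4, 0.311%, and 2 lower, 0.124%. None of the 7 calls held with DESeq2, without the block or with thinned cells. Il1r2 (chromosome 1, 40084692 to 40125230) was the gene with the largest ratio apart from immunoglobulin genes, at 454 and 565 CPM with Cd4 against 72.6 and 0 CPM with Ccr6 only. It was found in 10 of 58 and 10 of 38 members with Cd4 and in 4 of 56 and 0 of 27 without. The log2 ratio was 3.42 ± 0.51 (edgeR adjusted p = 6.0e-07), and up to 18 and 8 of the UMIs came from 1 member.

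Il22 stood at 6431 and 4406 CPM with Cd4 and at 3704 and 4083 with Ccr6 only, a log2 ratio of 0.51 ± 0.12 (edgeR adjusted p = 0.014) that was 0.83 in replicate 1 and 0.13 in replicate 2. Tmsb4x, an actin-binding peptide gene, was higher by 0.44 ± 0.10 (edgeR adjusted p = 0.0090), at 8213 and 6977 against 6256 and 5201 CPM. Odc1, the first enzyme of polyamine synthesis, stood at 4573 and 6115 with Cd4 against 6371 and 7994 CPM (-0.40 ± 0.10, edgeR adjusted p = 0.040). Hspa1b was lower with Cd4 at 8.41 and 678 against 125 and 1830 CPM, but 1 member with Ccr6 only held 89 of the 143 member UMIs of replicate 2 and another 12 of the 13 of replicate 1. The immunoglobulin genes Igha and Igkc were also called higher, and for Igkc, at 3237 and 0 against 187 and 38.5 CPM, the direction turned in replicate 2.

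H2-Aa, Cd74, Tcf7 and Vegfa did not pass between the 2 kinds of member. H2-Aa stood at 883 and 1087 CPM with Cd4 and 1027 and 1059 with Ccr6 only, overlapping (log2 ratio -0.07 ± 0.21, edgeR adjusted p = 0.99). Cd74 stood at 1454 and 2373 against 996 and 1464 CPM, the larger value with Cd4 in both replicates, and did not pass (0.65 ± 0.18, edgeR adjusted p = 0.071), although it did with the looser and the stricter cell filter (edgeR adjusted p = 0.046 and 0.028). Vegfa stood at 420 and 381 against 374 and 809 CPM (-0.37 ± 0.29, edgeR adjusted p = 0.99), and Tcf7 at 513 and 523 against 726 and 539 CPM (-0.30 ± 0.26, edgeR adjusted p = 0.99). A p that misses the threshold does not show that the levels were alike.

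The 15 and 7 members with both Ccr6 and Cd4 were described without a test. They were deeper, with a median of 2286 and 2698 UMIs against 1653.5 and 1668 over all members. H2-Aa was found in 11 and 5 of them, at 932 and 1904 CPM, and Cxcr5 in 6 and 2. Il22 stood at 9179.9 and 5767 CPM in these cells, above the 3704 and 4083 CPM of members with Ccr6 only. Vipr2 was found in 14 of 56 and 1 of 27 members with Ccr6 only and in 6 of 58 and 1 of 38 with Cd4. Adgre1 was found in 3 of 58 and 8 of 38 members with Cd4 and in 1 of 56 and 1 of 27 with Ccr6 only.

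**Figure D5:**
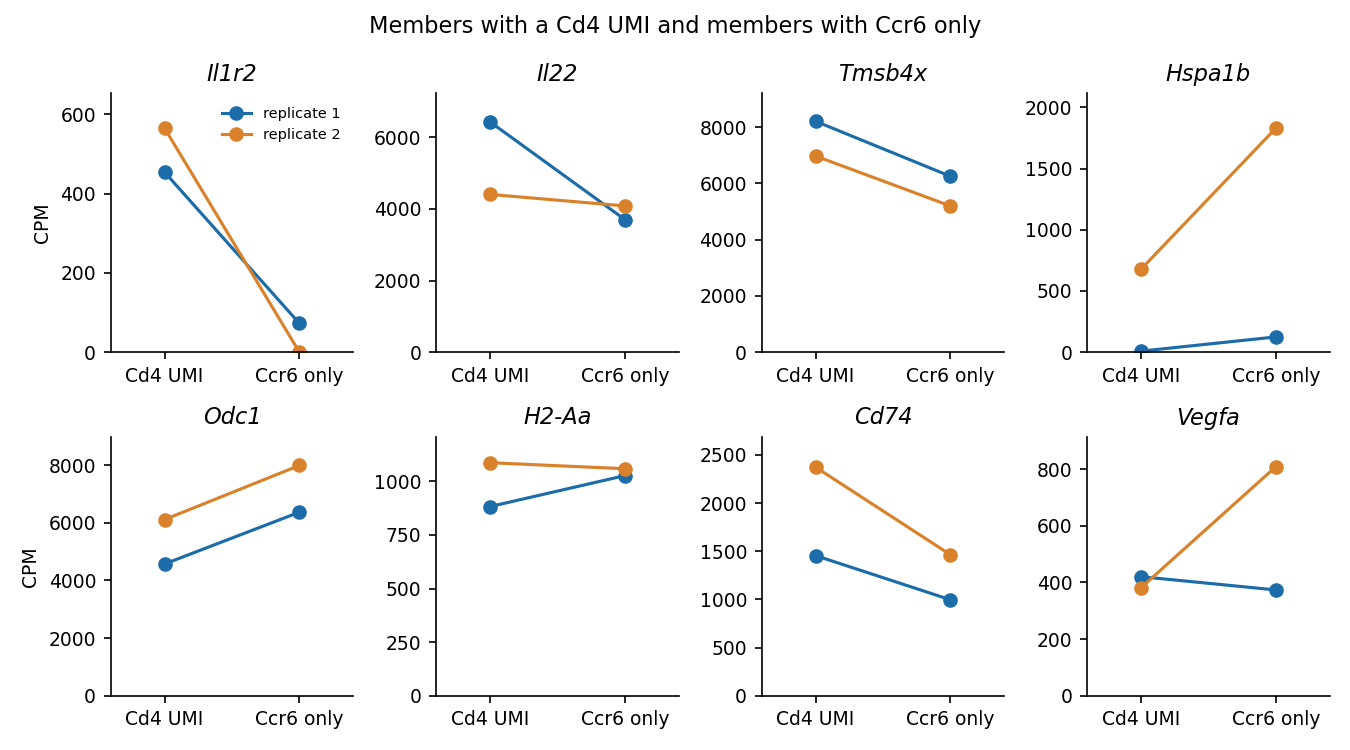
CPM of 8 genes in members with a Cd4 UMI and in members with Ccr6 only, with 1 line per replicate and each vertical axis starting at 0. Il1r2, Il22, Tmsb4x and Cd74 had the larger value with Cd4 and Hspa1b and Odc1 the smaller in both replicates; the lines of H2-Aa and Vegfa run in opposite directions in the 2 replicates.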

How the data were processed

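Each replicate came from its own BD Rhapsody library, in which samples carry tags before capture. The authors deposited UMI counts per cell and gene from version 1.8 of the Rhapsody Analysis Pipeline on GRCm38 with GENCODE M19, per the file headers. HISAT2 2.0.5 and Bowtie2 are named in the submitters' processing notes without a role. The own-tag cells, 3427 and 3954 of 15793 and 16531, held 7011649 and 6845914 UMIs. Cells of 3 other tags per library, multiplets by tag (572 and 987) and undetermined cells were not used. No doublet caller was run, so doublets within a tag remain. The libraries shared 303 cell indexes, 10 of them among own-tag cells.

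Counts were summed per replicate and class over the 23679 genes found in either table, 19031 of them in both. A gene missing from a replicate's table counted as 0 UMIs there. The sums were tested with edgeR 4.0.16 in R 4.3.3 (quasi-likelihood test, TMM, filterByExpr, Benjamini-Hochberg over all tested genes). The block pairs classes because they come from the same sample. The comparisons with Ncr1-positive and marker-negative cells came from a joint fit that also held Cd4-positive T cells and the remaining kept cells. Their spread was thus estimated over all these classes, with 4 residual degrees of freedom. The other comparisons had 1. SEs derive from the ratio and its F statistic, which uses a spread estimated with information shared across genes. An SE can thus be small where the replicates differ. Against all other kept cells Tgm2 had an SE of 0.25 with replicate log2 ratios of 2.04 and 3.93. Replicate log2 ratios use a prior count of 2. Named genes had the largest ratios among calls with the same direction in both replicates and at least 50 CPM in the higher class of each, without mitochondrial, ribosomal protein or immunoglobulin genes, besides the called members of the lists. Members, lists and rules were chosen with earlier results of these data known. On simulated counts the test recovered 8% of 2-fold and 52% of 4-fold changes against all other kept cells, with 0 false calls among 60. It recovered 25% and 59% against Ncr1-positive cells (5 false of 89) and 19% and 60% against marker-negative cells (2 of 81). Between members with and without Cd4 it recovered 20% and 70% (2 of 92). These counts were drawn per class with the same dispersion for all genes. They do not cover UMIs gathered in single cells or a spread that differs by gene. Alternatives were DESeq2 1.42.0, no filter, no block, cells thinned to 800 UMIs, other cell filters and other gates. Alternatives without cells carrying defining B cell, myeloid or dendritic UMIs, or Cd28, Cd40lg, Cd5 or Cd6 UMIs, were added after the data were seen. Results for 2 genes are not reported here.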

Additional observations from a re-analysis of the deposited data

How the results depend on the processing

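With 2 replicates the share of members ranged from 1.69% to 3.42% and was 1.04% with 2 or more gate UMIs. Leaving out a replicate leaves no residual degrees of freedom, so those values carry no test, and among named genes only Gata3 against Ncr1-positive cells (from -0.17 to 1.55) and Igkc with Cd4 (from -1.37 to 3.99) turned, both without replicate 1. Higher and lower calls against all other kept cells were 99 and 64 with DESeq2, 28 and 5 without the replicate block, 74 and 95 with thinned cells, 89 and 145 with 2 or more gate UMIs, 86 and 135 with Cd4 alone, and 100 higher with Ccr6 alone. Against Ncr1-positive cells they were 25 and 10 without the block and 141 and 128 thinned, with 123 lower in DESeq2 and 146 higher with Cd4 alone. Against marker-negative cells they were 1 and 0 without the block, where 686 genes had an unadjusted p under 0.05 and DESeq2 with the block called 132 and 92, then 79 and 104 thinned and 96 and 161 with Cd4 alone. Between members with and without Cd4, DESeq2, the fit without the block and thinned cells each gave 0 and 0, with 3, 28 and 25 genes at an unadjusted p under 0.05. No filter gave 3 and 0 (177 genes at an unadjusted p under 0.05, DESeq2 0), and the stricter cell filter 1 lower. Dropping cells with 2 or more B cell, plasma cell, myeloid or stromal UMIs left 7 and 14 members, and would leave 35 and 35 if Fcer1g and Tyrobp of that list were not counted. It gave 10 and 18, 15 and 30, 7 and 15, and 1 (Tmsb4x) and 0 calls, the last with 12 genes at an unadjusted p under 0.05, and turned Zfp36 (-0.0325) against all others. It also turned Ctla4 (0.27), Gata3 (-0.0662), Gpr183 (-0.45), Ikzf3 (0.15), Il1r2 (-0.0502), Kit (-0.63) and Ret (-0.64) against Ncr1-positive cells, Il22 (-0.0130) and Tnfsf8 (-4.803) against marker-negative cells and Cd74 (-1.42) with Cd4. Other turns were Cd40lg (1.56), Il17a (1.06) and Il21r (0.35) against only CD3-negative cells, Il17a (0.0756) without Cd28, Cd40lg, Cd5 or Cd6 UMIs, Hspa1b with Cd4 alone (-0.12) and without defining B cell, myeloid or dendritic UMIs (-0.11), and, thinned, Lta (-0.0410), Ltb (0.0674) and, with Cd4, Tcf7 (0.00525). Ltb against Ncr1-positive cells turned when thinned (0.35), with the stricter filter (0.0580) and without defining UMIs (0.0153), H2-Aa with Cd4 without a filter (0.00938) and Cd28 against Ncr1-positive cells with Ccr6 alone (-0.45). Apart from the few members left where cells with 2 or more such UMIs were dropped, the cause was not tested. Of the 24 genes named against all other kept cells, 17 kept their call with DESeq2, 14 without the block, 19 thinned and 24 without defining B cell, myeloid or dendritic UMIs. DESeq2 gave no adjusted p for Adra2a and Pdcd1 against marker-negative cells.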
